A study of Bos grunniens and Bos grunniens x Bos taurus with 2 samples.

Results

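The T cell receptor complex was described through 5 genes, CD3D, CD3G, CD247, LCK and TRDC, which were taken by symbol from the 26961 genes counted in single cells of yak and cattle-yak testis. Each symbol matched 1 gene, namely ENSBGRG00000022481 for CD3D, ENSBGRG00000022359 for CD3G, ENSBGRG00000006979 for CD247, ENSBGRG00000012273 for LCK and ENSBGRG00000008065 for TRDC. The yak library came from testis tissue of Bos grunniens, and the cattle-yak library from testis tissue of the hybrid Bos grunniens x Bos taurus. In both, frozen tissue was thawed and digested with enzymes, polyA RNA of the released cells was sequenced with unique molecular identifiers (UMIs), and no treatment or genotype other than the cross is given. The yak was a sexually mature male, 4 years old, from which a single testis sample was analysed, while the handling of the cattle-yak animal is known only from its labels. Each group is 1 library, so the libraries can be compared but the crosses cannot, there is no replicate check, and all intervals below are exact 95% intervals that cover counting error only.

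The receptor complex is the sensor through which T cells recognise antigen. A pair of variable chains, alpha with beta or gamma with delta, binds the antigen but has no signalling tail of its own. The invariant chains CD3-gamma (CD3G), CD3-delta (CD3D), CD3-epsilon and zeta (CD247) carry the signal inward, and the Src family kinase LCK phosphorylates their tails. TRDC encodes the constant region of the delta chain, a part of the receptor of gamma delta T cells, which are abundant in ruminants. A UMI of TRDC does not by itself show a rearranged delta chain. Cells with TRDC are therefore not named gamma delta T cells here. Natural killer cells lack a rearranged receptor but can carry CD247 and LCK, and the interstitial tissue of the testis holds resident T cells next to macrophages.

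Sequencing gave 60816600 UMIs over 11991 cells for yak, and 43774841 UMIs over 8930 cells for the hybrid. Under the limits of the study (genes and UMIs within 2 standard deviations of the mean, mitochondrial share under 30%), 10324 yak cells and 7092 cattle-yak cells were kept. The cells were clustered without the 5 genes and without the receptor constant chains, and clusters with T and NK cell markers are called lymphocytes here. They made up 3694 yak cells (35.8%, 34.9 to 36.7) and 1257 cattle-yak cells (17.7%, 16.8 to 18.6). Lymphocytes were shallower than the other kept cells, with a median of 1943 against 3560.5 UMIs in yak and 2388 against 3176 in cattle-yak, and 24 cell barcodes occurred in both libraries. Among the lymphocyte sub-clusters, 4 in cattle-yak (of 77, 51, 30 and 8 cells) and 2 in yak (of 120 and 29 cells) held at least 3 enriched markers of another cell class. Their receptor gene levels are given below, and the comparison of the libraries is also given without them.

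Among the kept cells, all 5 genes were concentrated in the lymphocytes of both libraries. Over all deposited yak cells this did not hold for CD247. Lymphocytes held 28.4% of its counts there, and germ-like cells above a depth limit held 55.5%. The yak cells typed as late spermatocytes also had more CD247, 84.0 CPM, than the yak lymphocytes, 47.7 CPM. CD3D summed to 3765 counts in yak lymphocytes, which is 465 CPM (counts scaled to an equal total of UMIs; 450 to 480), against 14.5 CPM in the other kept yak cells. In cattle-yak it stood at 219 CPM (204 to 235) against 2.06 CPM. The lymphocyte level was thus 32.0 times the level elsewhere in yak and 106 times in cattle-yak. CD3G, the gamma chain of CD3, gave 151 CPM (142 to 159) against 5.61 in yak and 119 CPM (108 to 131) against 1.23 in cattle-yak. CD3e, the epsilon chain as the annotation spells it and not among the 5, ran alongside with 107 against 3.73 CPM in yak and 67.6 against 0.659 CPM in cattle-yak.

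TRDC had 7598 counts in yak lymphocytes, or 938 CPM (917 to 960), against 35.1 CPM in the other kept cells. In cattle-yak lymphocytes it had 1912 counts, or 547 CPM (523 to 573), against 7.25 CPM. TRDC was unevenly loaded among cells. Of the lymphocytes with any TRDC UMI, only 19.5% in yak and 14.0% in cattle-yak had a single UMI, and the most loaded cells held 47 and 28. For CD3D the share with a single UMI was 55.3% in yak and 67.4% in cattle-yak, and the highest counts were 16 and 6.

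The kinase gene LCK was sparse, with 308 counts or 38.0 CPM (33.9 to 42.5) in yak lymphocytes against 1.67 CPM elsewhere, and with 84 counts or 24.1 CPM (19.2 to 29.8) in cattle-yak lymphocytes against 0.307 CPM elsewhere. Its lymphocyte level was 22.8 times the level elsewhere in yak and 78.2 times in cattle-yak, and 92.7% and 93.7% of positive lymphocytes had a single UMI. CD247, the zeta chain, reached 47.7 CPM (43.0 to 52.7) in yak lymphocytes and 24.6 CPM (19.7 to 30.4) in cattle-yak lymphocytes. Its level in yak lymphocytes was only 7.10 times that elsewhere, against 46.7 times in cattle-yak. With 1 CPM added to each side the yak log2 ratio of CD247 was 2.66, and it was 1.29 when no limits on genes, UMIs or mitochondrial share were set, which lets in the deep germ cells described below. In yak 67.1% of its kept counts lay in lymphocytes, while the other 4 genes had between 86.8% and 90.2% of theirs there. In cattle-yak the 5 shares ran from 87.8% for CD247 to 94.2% for CD3D, although the lymphocytes held 22.3% of all kept UMIs in yak and 13.3% in cattle-yak.

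**Figure D1:**
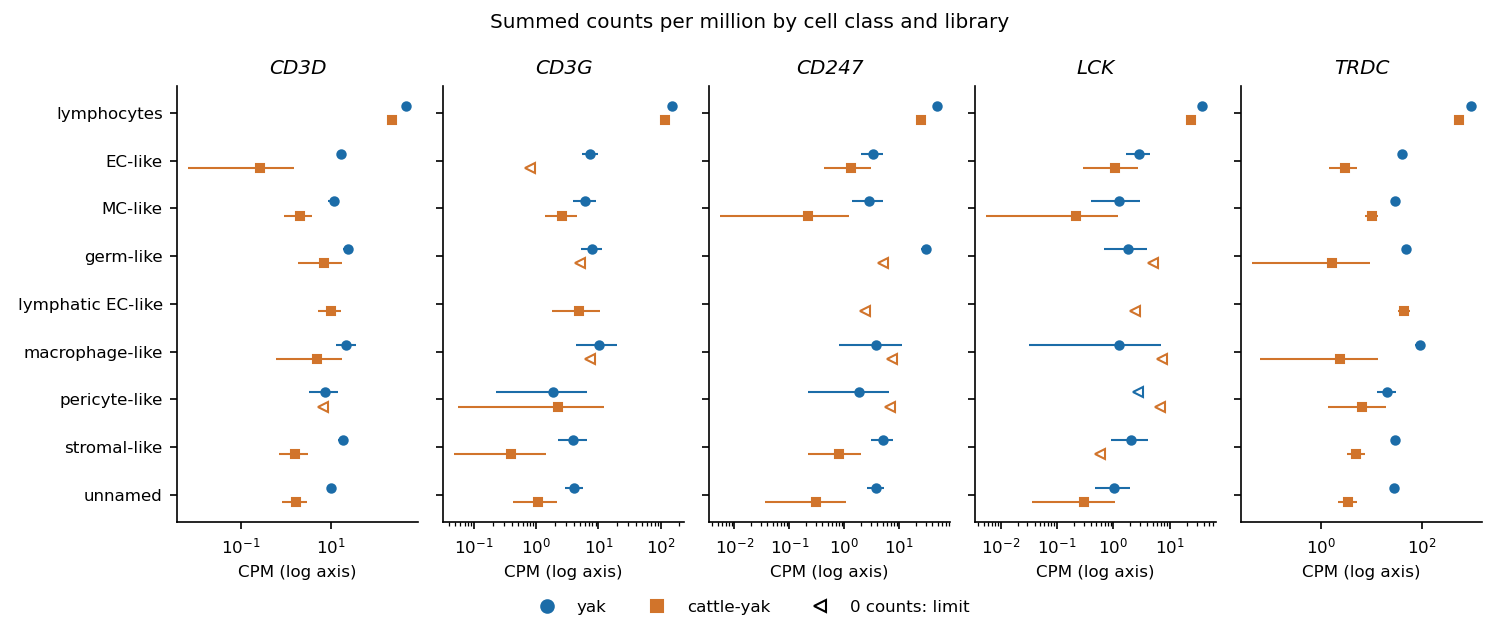
CPM of each gene (log axis) in the lymphocytes and in the other cell classes of the yak library (circles) and the cattle-yak library (squares), with exact 95% Poisson intervals and with left-pointing triangles at the limit of 3 counts where a class had 0 counts. Among the kept cells, the lymphocytes lie to the right of every other class for all 5 genes, and CD247 in the yak germ-like class (30.5 CPM) comes closest to its lymphocyte level (47.7 CPM).

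All 5 genes were at least 2-fold higher in the lymphocytes of both libraries, where 7.51% of the 12795 genes compared in yak and 7.4% of the 11157 genes compared in cattle-yak were. The log2 ratio of their summed CPM, with 1 CPM added to each side, was 4.67 in yak and 6.24 in cattle-yak. They were 5.60 and 7.04 when the 10% of cells that scored highest as doublets were dropped. Those cells held 53.5% of the member counts outside the lymphocytes in yak and 45.6% in cattle-yak. With the mean of CPM per cell in place of summed counts the yak value was 4.05.

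To compare shares of cells at equal depth, each cell was thinned at random to 1000 UMIs, which left 3498 yak and 1212 cattle-yak lymphocytes. In yak, CD3D was found in 36.0% of thinned lymphocytes against 1.74% of the other thinned cells, and TRDC in 38.7% against 2.91%. In cattle-yak the corresponding shares were 20.5% against 0.16% for CD3D and 25.1% against 0.552% for TRDC. CD3G was found in 13.8% of yak and 12.5% of cattle-yak thinned lymphocytes, CD247 in 4.52% and 3.55%, and LCK in 3.66% and 2.97%. Without thinning, CD3D was found in 56.7% of yak and 41.4% of cattle-yak lymphocytes and TRDC in 46.1% and 31.2%. At 1000 UMIs, 33.3% of yak and 51.7% of cattle-yak lymphocytes showed none of the 5 genes, so a cell without any of their UMIs may still express them.

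Outside the lymphocytes, the counts of the members had a mix close to that inside them in several yak classes. TRDC made up 57.2% of the member counts in yak lymphocytes, and it made up 57.2% (52.5 to 61.9) in endothelial (EC-like) cells, 57.9% (50.8 to 64.8) in myoid (MC-like) cells and 50.7% (43.9 to 57.4) in stromal-like cells. CD3D took 28.4% of the mix in yak lymphocytes, 23.6% (19.8 to 27.8) in EC-like cells, 22.3% (16.7 to 28.6) in MC-like cells and 30.7% (24.7 to 37.1) in stromal-like cells. Macrophage-like cells had more TRDC in the mix, at 71.8% (62.1 to 80.3). Their 74 TRDC counts came from 24 cells, with up to 13 in a cell, and the interval treats the counts as independent. Germ-like cells stood apart, since CD247 made up 27.0% (22.5 to 31.8) of their member counts against 2.91% in lymphocytes. CD247 also took a larger part of the mix in stromal-like cells, at 8.44% (5.16 to 12.9). The part of free RNA and of doublets in these counts was not tested beyond the doublet scores above.

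The highest TRDC level outside the lymphocytes was 93.7 CPM in yak macrophage-like cells (214 cells) among the named classes, and 44.1 CPM (33.2 to 57.4) in lymphatic EC-like cells (316 cells) in cattle-yak. The lowest yak value among them was 20.1 CPM in pericyte-like cells, and in cattle-yak the germ-like cells had 1.68 CPM. CD3D ran from 7.32 CPM in pericyte-like to 23.5 CPM in germ-like yak cells, and from 0 counts in 107 pericyte-like cells to 9.62 CPM in lymphatic EC-like cattle-yak cells. The intervals of neighbouring classes in these orders overlapped widely for CD3G and LCK, which had at most 47 and 18 counts in any yak class outside the lymphocytes.

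Inside the lymphocytes, sub-clusters high in TRDC tended to be low in the alpha chain, while CD3D and CD3G were found in both kinds. The annotation of the study names ENSBGRG00000008096 as the alpha chain C region and ENSBGRG00000007369 as the beta-1 chain C region. In yak, sub-cluster 1, led by CD40LG, GPR183, CD28 and IL7R (896 cells), had 93.9 CPM of TRDC, 613 of the alpha chain and 1684 of the beta chain. Sub-cluster 2, with ITGA6, SPEF2 and CRTAM among its leading genes (663 cells), had 1591 CPM of TRDC, 258 of the alpha chain and 933 of the beta chain. The small sub-cluster 8, led by CTLA4, an inhibitory receptor of activated and regulatory T cells (86 cells), combined the lowest TRDC of the yak sub-clusters, 42.4 CPM, with 2844 CPM of the beta chain and 1226 CPM of the alpha chain.

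CD3D was 356 CPM in yak sub-cluster 1, 524 in sub-cluster 2 and 915 in sub-cluster 8, and CD3G was 120, 161 and 193 CPM there. TRDC thus differed far more between sub-clusters 1 and 2 than either CD3 gene did. Yak sub-clusters 7 and 11, which held markers of another class, had 256 and 33.1 CPM of CD3D and 806 and 166 CPM of TRDC. LCK was 20.7 CPM in sub-cluster 1, 55.6 in sub-cluster 4, which the NK receptor genes NKG2A (ENSBGRG00000021140) and CD94 (ENSBGRG00000020643) led, and 67.7 in sub-cluster 5. Sub-cluster 5, which the small nuclear RNAs U3 and U2 led with SPEF2 and PTPN6, also had the highest TRDC, 2208 CPM. Sub-cluster 10, with JAG1 and CXCR6 among its leading genes (53 cells), had 1239 CPM of TRDC and the lowest beta chain level of the sub-clusters with over 50 cells, 582 CPM.

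In cattle-yak the same contrast was seen. Sub-cluster 1 (298 cells) and sub-cluster 4 (131 cells), both with NKG2A and IL2RB among their leading genes, had 1217 and 1627 CPM of TRDC, whereas sub-cluster 2, led by GZMM and RUNX3 (252 cells), had 42.9 and sub-cluster 3, led by IL7R and DPP4 (230 cells), had 116. The alpha chain stood at 251 and 381 CPM in the first pair and at 761 and 440 CPM in the second. Sub-cluster 5 (89 cells), led by RHEX, IL1R1 and JAG1, had 1193 CPM of TRDC with 153 CPM of CD3D and 0 counts of LCK, which allows up to 13.4 CPM. CD3D lay between 257 and 329 CPM in the first 4 cattle-yak sub-clusters. In the 4 sub-clusters with markers of another class, CD3D was 110, 0, 27.8 and 0 CPM and TRDC 240, 0, 4.63 and 0 CPM.

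**Figure D2:**
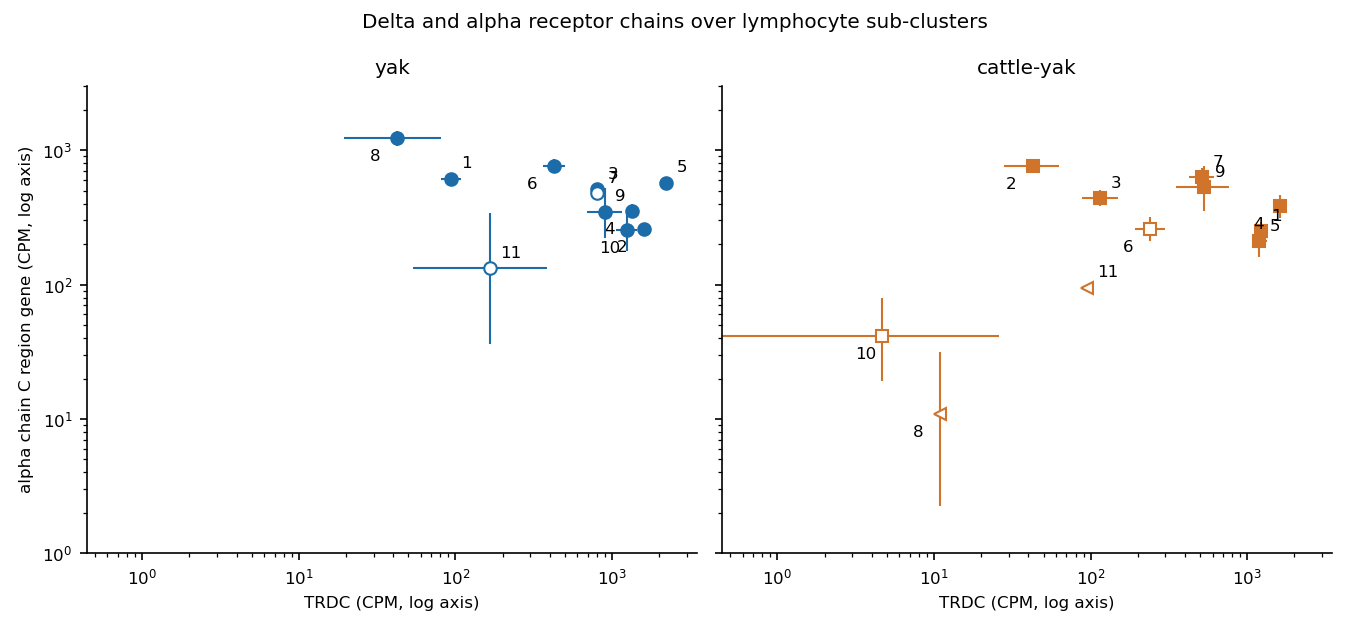
TRDC (x axis) against the alpha chain C region gene (y axis), both in CPM on log axes, for each numbered lymphocyte sub-cluster of the yak library (left) and the cattle-yak library (right), with exact 95% Poisson intervals. Open symbols mark sub-clusters with at least 3 enriched markers of another class, triangles mark 0 counts of TRDC, and among the filled symbols those with the lowest TRDC (42.4 CPM in yak, 42.9 CPM in cattle-yak) have the highest alpha chain level.

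In single cells the same pairs separated. In thinned yak lymphocytes the alpha chain was found in 20.7% (18.5 to 22.9) of cells with TRDC and in 43.4% (41.3 to 45.6) of cells without it. In cattle-yak it was found in 9.54% (6.48 to 13.4) against 34.9% (31.8 to 38.1). Cells with both were 0.597 times as frequent as independence of the 2 genes would give in yak and 0.334 times in cattle-yak. The beta chain was also less frequent in cells with TRDC, at 51.2% against 65.1% in yak and 44.7% against 57.6% in cattle-yak, with ratios of 0.857 and 0.823. Alpha and beta chains occurred together 1.16 times as often as independence would give in yak and 1.20 times in cattle-yak.

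As a group, the CD3 genes were found with TRDC slightly more often than independence would give. A UMI of TRDC together with a UMI of CD3D, CD3G or CD247 was found in 697 of 3498 thinned yak lymphocytes (19.9%, 18.6 to 21.3), where independence would give 18.2%. In cattle-yak it was found in 126 of 1212 (10.4%, 8.73 to 12.3), where independence would give 8.15%. TRDC was present in 42.5% of yak cells with a CD3 gene and in 35.4% of those without, and in cattle-yak in 32.0% against 21.8%. Cells with CD3D and CD3G were 5.80% of yak lymphocytes, or 1.16 times the share under independence. In cattle-yak they were 2.72%, or 1.06 times, with an interval that included the share under independence. CD247, whose protein sits in the same complex, had ratios below 1 in yak, at 0.86 with CD3D (49 cells) and 0.78 with CD3G (17 cells). In cattle-yak these ratios were 1.36 (12 cells) and 0.93 (5 cells). The intervals of these CD247 pairs all included the share under independence. CD3G with TRDC was found in 5.69% (4.94 to 6.51) of yak and 3.71% (2.72 to 4.94) of cattle-yak lymphocytes, and these intervals included the 5.36% and 3.15% that independence would give. CD247 with TRDC had a ratio of 1.36 in yak (83 cells) and 1.11 in cattle-yak (12 cells), and LCK with TRDC 1.29 (64 cells) and 1.33 (12 cells). Of these pairs, only CD247 with TRDC in yak had an interval (1.89% to 2.93%) that excluded the share under independence, 1.75%. For LCK with TRDC in yak the interval (1.412% to 2.330%) just included the 1.417% under independence. The lower bounds of both cattle-yak ratios were also below 1, so these associations were not detectable there at this depth. All these shares include the sub-clusters with markers of another class, without which cattle-yak had 1091 in place of 1257 lymphocytes before thinning. Those cattle-yak sub-clusters had less CD3D and TRDC, and cells with neither gene raise such ratios. The share under independence was not computed without them.

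**Figure D3:**
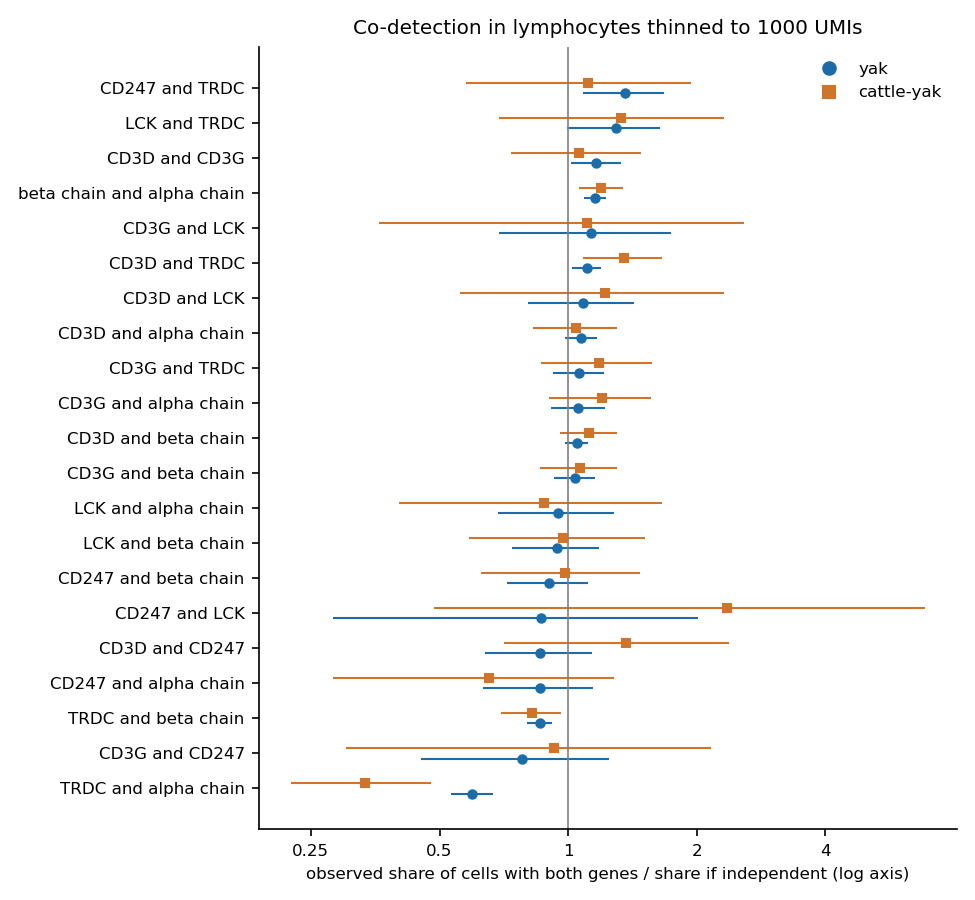
Share of thinned lymphocytes with UMIs of both genes of a pair, divided by the share expected if the genes were independent (log axis, line at 1), for the yak library (circles) and the cattle-yak library (squares), with exact 95% binomial intervals of the observed share. TRDC with the alpha chain has the lowest ratio in both libraries, 0.597 and 0.334, while CD3D with TRDC lies above 1, at 1.11 and 1.35. Sub-clusters with markers of another class are included.

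Counting how many of the 5 genes a cell showed, 41.4% of thinned yak lymphocytes had 1, 20.7% had 2, 4.37% had 3, 0.229% had 4 and none of 3498 had all 5, which allows a share of up to 0.105%. Independence would give 44.8%, 20.7%, 3.31% and 0.182% for 1 to 4 genes. In cattle-yak 33.7% had 1, 12.7% had 2, 1.82% had 3 and none of 1212 had more. Yak lymphocytes thus had more cells with 3 members, and more with none, than independence would give. Cattle-yak also had more cells with none, at 51.7% (48.9 to 54.6) where independence would give 48.8%. It had more with 2, at 12.7% (10.88 to 14.71) against 10.81%, and fewer with 1, at 33.7% (31.1 to 36.5) against 39.2%. In cattle-yak the interval for 3 members (1.14 to 2.74) included the 1.20% that independence would give. These shares also include the sub-clusters with markers of another class, which in cattle-yak had less CD3D and TRDC. Such cells raise the share with none, and the shares were not computed without them. Among the other kept cells of yak, 40 of 5506 had 2 or more members, and 27 had TRDC with a CD3 gene (0.49%) where independence would give 0.0855%. In cattle-yak 2 of 5617 such cells did.

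Lymphocytes with a CD3 gene were then split by TRDC, without thinning, into 1249 cells with and 1285 without in yak (median depth 2038 and 2028 UMIs) and 255 with and 467 without in cattle-yak (2519 and 2450 UMIs). The 1586 genes with at least 200 counts in the lymphocytes of each library were ranked by the ratio nearer to 0 of the 2 libraries. The first was ENSBGRG00000007724, described in the annotation only as an uncharacterized protein, with a log2 ratio of 2.50 (2.33 to 2.70) in yak and 2.59 (2.22 to 3.01) in cattle-yak. NKG2A, an inhibitory NK receptor, followed with 1.62 and 1.53, VAV3, a guanine nucleotide exchange factor, with 1.40 and 1.46, and IL2RB, a subunit of the receptors for interleukins 2 and 15, with 1.41 and 1.31. CD7 (1.16 and 1.25), PRKAR2B (1.34 and 1.09), NKG7 (1.06 and 1.39), CCL5 (1.05 and 1.02), ITGA6 (1.47 and 0.99) and ENSBGRG00000019867 (1.45 and 0.97) completed the first 10 genes. NKG7 and CCL5 are a granule protein and a chemokine of cytotoxic lymphocytes.

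At the other end of the same ranking stood ICOS, a costimulatory receptor, with −2.37 in yak and −1.44 in cattle-yak, the alpha chain with −1.32 and −2.09, PLAC8 with −1.30 and −2.00, BHLHE40, a transcription factor, with −1.54 and −1.62, and SERPINE2 with −1.54 and −1.60. Genes with too few counts for the ranking differed as much or more. CD40LG, the helper T cell ligand of CD40, had a log2 ratio of −3.28 in yak (16 counts with TRDC against 189 without) and had 2 against 45 counts in cattle-yak. CD28 had 28 counts with TRDC against 248 without in yak, and 0 against 73 in cattle-yak. CD4, the coreceptor of helper T cells, had 4 against 69 counts in yak and 0 against 11 in cattle-yak. GZMK, a granzyme, was higher with TRDC by 1.35 and 1.46, and SLAMF7 by 1.34 and 1.20. Of the other cytotoxic genes listed, PRF1 was 0.47 (−0.099 to 1.10) in yak and 1.04 (0.18 to 2.00) in cattle-yak, so its yak interval included 0. The rest had values of opposite sign in yak and cattle-yak: GZMM was 0.74 and −0.33, EOMES 0.21 and −0.74, and FASLG 0.05 and −0.83. GZMA was 0.10 and −1.22 (1 against 6 counts in cattle-yak), TBX21 0.19 and −0.01, and IFNG −0.63 and 0.36. For each of these genes the interval included 0 in at least 1 library, so a difference in direction between the libraries was not settled.

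CD3D differed little across this split, while CD247 and LCK were higher with TRDC in yak. CD3D had 680 CPM with TRDC and 607 without in yak, and 422 and 374 in cattle-yak, which is 0.16 and 0.17 log2 units. CD247 had 84.5 against 48.1 CPM in yak, a log2 ratio of 0.80 (0.51 to 1.12), and 46.7 against 42.4 in cattle-yak, 0.14 (−0.54 to 0.80). LCK had 53.1 against 29.4 CPM in yak, 0.83 (0.46 to 1.25), and 32.1 against 30.7 in cattle-yak, 0.07 (−0.76 to 0.86). The split itself required a UMI of CD3D, CD3G or CD247, so levels of these 3 are higher on both sides than in all lymphocytes. This requirement can also narrow their difference between the sides, and their levels were not compared across TRDC without it.

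Between the libraries, 1 of the 5 genes, CD3D, was at least 2-fold lower in cattle-yak lymphocytes and none was at least 2-fold higher, where 6.09% of the 8228 genes compared were lower and 7.15% higher. CD3D was lower under all 12 alternatives, but at least 2-fold lower under only 5 of them, and not so relative to the median of all genes. The log2 ratio of cattle-yak to yak was −1.08 (−1.20 to −0.97) for CD3D, −0.93 (−1.31 to −0.61) for CD247, −0.78 (−0.85 to −0.70) for TRDC, −0.64 (−1.03 to −0.31) for LCK and −0.34 (−0.51 to −0.18) for CD3G. The median over all genes was −0.19, and it moved to 0.02 when mitochondrial and ribosomal RNA genes were left out of the totals. Relative to the median, CD3D stood at −0.89 and −0.88 under the 2 scales and CD3G at −0.15 and −0.14. Without the sub-clusters that held markers of another class, the ratio was −0.82 for CD3D, −0.45 for TRDC and −0.07 for CD3G. The CD3G ratio was 0.025 when lymphocytes were taken as cells with UMIs of at least 3 T and NK markers, so its direction was not settled.

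The makeup of the lymphocytes differed between the libraries, so the largest cluster with CCL5 among its leading genes and the largest with IL7R, both chosen after the values were seen, were set side by side. In the clusters led by CCL5 (2075 yak and 482 cattle-yak cells), TRDC was 1309 CPM (1275 to 1344) in yak and 1264 CPM (1198 to 1332) in cattle-yak, and LCK was 45.6 and 44.0 CPM. CD3D was 523 CPM (501 to 545) against 325 CPM (292 to 361), a log2 ratio of −0.69 (−0.85 to −0.52). CD3G was 168 against 191 CPM, a log2 ratio of 0.19 (−0.04 to 0.41). The TRDC difference between all lymphocytes was not seen within this pair, whereas that of CD3D was. The paired clusters share a leading gene but need not hold like cells. GZMM was among the leading genes of the yak cluster. In cattle-yak it was among those of a separate cluster, 13, with 60.5 CPM of TRDC. Whether makeup accounts for the TRDC difference was not tested.

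In the clusters led by IL7R (1149 yak and 351 cattle-yak cells), CD3D was 406 against 200 CPM, a log2 ratio of −1.02 (−1.26 to −0.79), and TRDC was 190 CPM (174 to 207) against 421 CPM (379 to 467), a log2 ratio of 1.15 (0.95 to 1.35). TRDC was thus higher in cattle-yak in the IL7R-led pair and nearly level in the CCL5-led pair. CD247 was lower in cattle-yak in the CCL5-led and the IL7R-led pair, at −0.70 (−1.27 to −0.17) and −0.94 (−1.74 to −0.21). The IL7R-led clusters share a leading gene but need not hold like cells. Cattle-yak lymphocyte sub-cluster 5 (89 cells), high in TRDC and low in CD3D, also had IL7R and GPR183 among its leading genes. Its part in the differences of the IL7R-led pair was not tested. Of the remaining cattle-yak clusters, cluster 13, with SH2D1A and the granzyme gene GZMM among its leading genes, had 60.5 CPM of TRDC with 280 CPM of CD3D, and the proliferating cluster 15 had 149 CPM of TRDC and 81.3 CPM of CD3D, against 775 and 270 CPM in the proliferating yak cluster 17. Sub-clusters with markers of another class held 83 of the 135 cells of cluster 15 and 77 of the 78 cells of yak cluster 17. Without them cluster 15 had 477 CPM (389 to 577) of TRDC and 252 CPM (190 to 328) of CD3D, and yak cluster 17 could not be set beside it. Median mitochondrial share was 21.4% in cattle-yak and 15.2% in yak lymphocytes, and its part in these differences was not tested. Library, animal, cross and handling cannot be told apart.

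**Figure D4:**
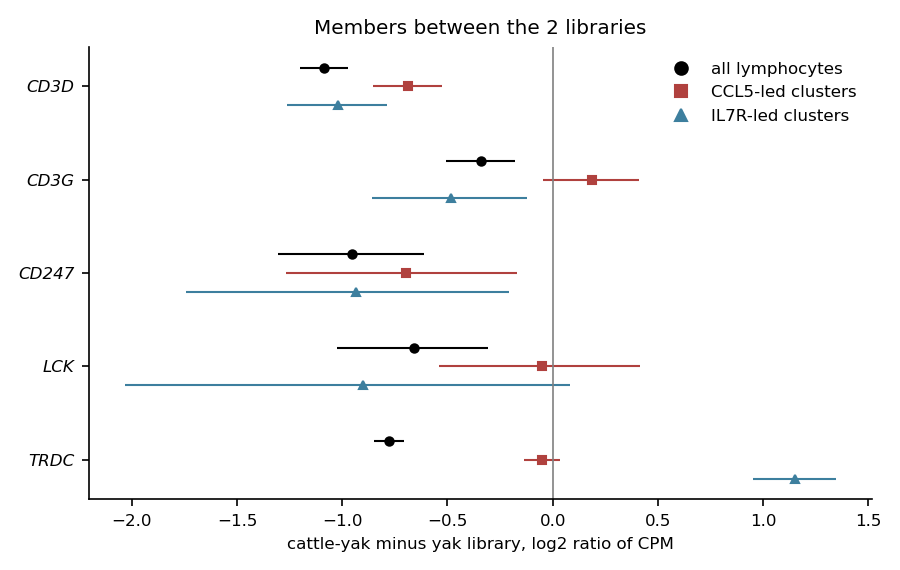
Log2 ratio of CPM between the cattle-yak and the yak library (x axis, line at 0) for each gene in all lymphocytes (circles), in the CCL5-led clusters (squares) and in the IL7R-led clusters (triangles), with exact conditional 95% intervals. CD3D and CD247 lie below 0 in all 3 comparisons, while TRDC ranges from −0.78 in all lymphocytes to 1.15 in the IL7R-led clusters.

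Late male germ cells of yak carried more CD247 than earlier ones. In the cells that the study typed as late-SPC (late spermatocytes), CD247 had 40 counts in 261 cells, or 84.0 CPM (60.0 to 114), and in those typed as SPT (spermatids) 16 counts in 224 cells, or 58.9 CPM (33.7 to 95.7). In the earlier types it had 1 count in 84 SSC (spermatogonial stem cells), 2 counts in 486 SPG (spermatogonia), or 3.23 CPM, and 3 counts in 72 early-SPC. CD3D did not separate them in the same way, with 18.9 CPM in late-SPC and 33.1 in SPT against 21.1 to 37.2 in the earlier types, and LCK had 1 count in each of the late types. TRDC was 35.7 CPM in late-SPC but 144 CPM in SPT, which were the shallowest cells at a median of 906 UMIs. The 39 TRDC counts of SPT came from 19 cells, with up to 12 in a cell. The log2 ratio of CD247 between the 2 late types together and all other kept cells outside the lymphocytes was 3.70, with 1 CPM added.

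The deepest germ cells, which lie above the limits on genes or UMIs and so outside the kept cells, held most of the CD247 of the library. The 412 germ-like yak cells above a depth limit held 754 CD247 counts, and all 11991 deposited yak cells held 1359. Of these 412, the 173 nearest to the cluster with the acrosomal gene ACRV1 had 744 counts, or 102 CPM, with a CD247 UMI in 152 cells (87.9%) and up to 20 in a cell. In the same 173 cells CD3D was 10.6 CPM and TRDC 5.22 CPM, and CD247 made up 86.1% of all member counts. Thinned to 1000 UMIs, 9.25% of these cells kept a CD247 UMI and none kept a CD3D or a TRDC UMI, while 4.52% of yak lymphocytes kept a CD247 UMI.

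When kept and deep germ cells were clustered together, CD247 was high in 4 sub-clusters. It was 129 CPM (117 to 142) in sub-cluster 10 (79 cells), where SPATA16, an acrosome formation gene, was 1122 CPM and ACRV1 13.0 CPM. It was 96.8 CPM (84.8 to 110) in sub-cluster 5 (134 cells), where ACRV1 was 828 CPM, and 60.2 CPM (50.1 to 71.8) in sub-cluster 4 (151 cells), where ACRV1 was 1133 CPM and the spermatid gene TNP1 882 CPM. It was also 94.8 CPM (68.3 to 128) in sub-cluster 2 (345 cells), which was shallow at a median of 941 UMIs, had SPATA16 at 524 CPM and ACRV1 at 187 CPM, and was led by somatic genes such as CXCL12 and RGS5. By contrast CD247 had 2 counts, or 1.26 CPM (0.152 to 4.54), in sub-cluster 7, with PIWIL1 and TDRD5 among its leading genes and SPATA16 at 672 CPM. It had 1 count in sub-cluster 9, with the meiotic gene SYCP3 at 1889 CPM, and 2 counts in sub-cluster 3, with the spermatogonial gene UCHL1 at 1552 CPM.

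Cells with CD247 were mostly without another member in the germ line. Of 80 kept germ-like yak cells with CD247, 17.5% (9.91 to 27.6) held another member, against 12.4% of all kept germ-like cells. Of the 162 deep germ-like cells with CD247, 39.5% did, against 27.2% of all such deep cells. Of the lymphocytes with CD247, 86.6% (82.5 to 90.0) held another member, against 80.4% of all yak lymphocytes. In an assembly of RefSeq (Bosgru_T2T1.0, which is not the build of the files and was used only for the order of genes), CD247 lies between POU2F1 and CREG1 without overlap. CREG1 was 65.0, 53.5 and 23.8 CPM in sub-clusters 10, 5 and 4, which is the same order as for CD247. It was 5.03, 37.0 and 30.2 CPM in sub-clusters 7, 9 and 3, so sub-clusters 9 and 3 stood above sub-cluster 4. POU2F1 was at most 5.91 CPM in sub-clusters 10, 5 and 4. The shallow sub-cluster led by somatic genes, where CD247 was also high, is not included in these CREG1 and POU2F1 values. A part of neighbouring genes in the CD247 counts was not tested.

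In cattle-yak germ cells CD247 stayed low. CD247 had 0 counts in 112 kept germ-like cells, which allows up to 6.20 CPM, and 8 counts in 220 germ-like cells above a depth limit, or 1.37 CPM (0.593 to 2.71). None of its 6 germ cell sub-clusters exceeded 2.48 CPM. ACRV1 had 0 counts in all 6 and SPATA16 reached 352 CPM only in sub-cluster 6, with 16 cells, in which CD247 had 0 counts and an upper limit of 13.4 CPM. Cells with ACRV1, in which CD247 was high in yak, were thus not found in cattle-yak, and CD247 could not be compared in them. In yak, CD247 was also high in a sub-cluster with much SPATA16 and little ACRV1, but low in another with SPATA16. Which of these yak cells the cattle-yak sub-cluster 6 resembles was not tested.

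**Figure D5:**
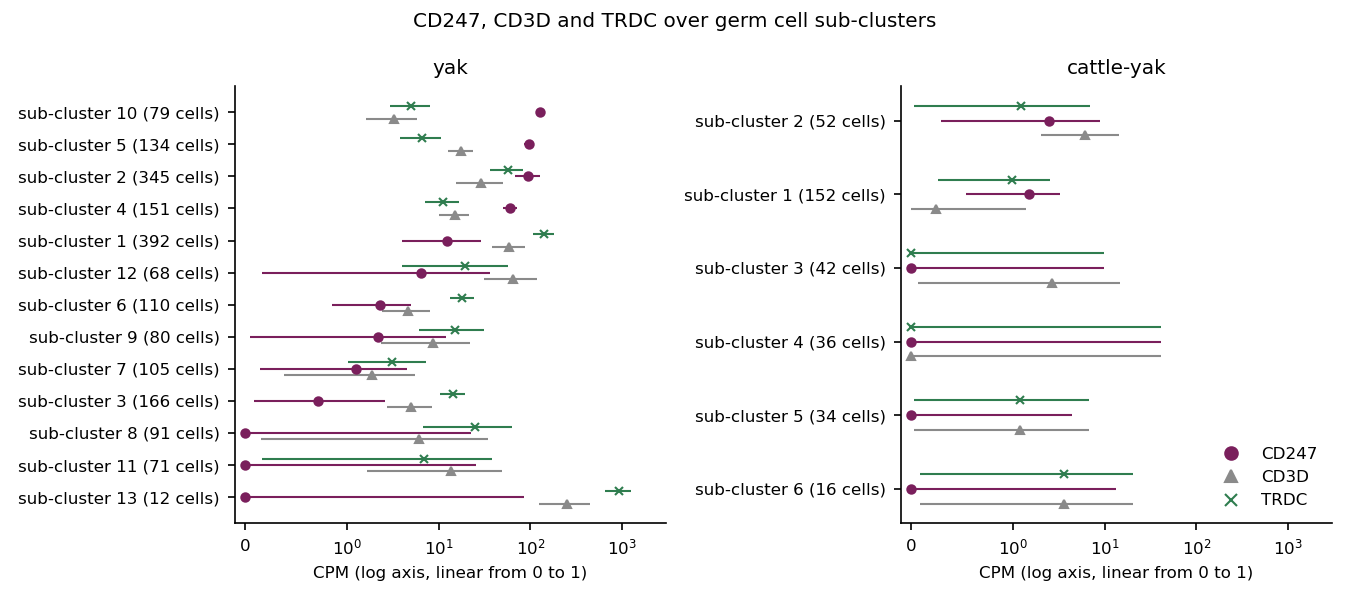
CPM of CD247 (circles), CD3D (triangles) and TRDC (crosses) in each germ cell sub-cluster of the yak library (left) and the cattle-yak library (right), ordered by CD247, with exact 95% Poisson intervals. The axis is logarithmic above 1 and linear from 0 to 1. Yak sub-clusters 10, 5 and 4 have 60.2 to 129 CPM of CD247 with at most 17.7 CPM of CD3D, and no cattle-yak sub-cluster exceeds 2.48 CPM of CD247. The shallow yak sub-cluster led by somatic genes is also high in CD247 and is not among the yak sub-clusters named here.

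The other genes of the receptor pathway were described from 10 lists, which entered the clustering, so that their concentration in lymphocytes is a description. Of 139 listed genes 105 were annotated. In yak 73 of the 95 genes with at least 50 counts were at least 2-fold higher in lymphocytes and 7 at least 2-fold lower, with a median log2 ratio of 3.04, against a median of −0.55 over all genes, of which 7.51% were higher and 34.5% lower. In cattle-yak 57 of 80 were higher and 5 lower, with a median of 3.62 against −0.41 over all genes, of which 7.4% were higher and 26.8% lower. Of the tested genes, 21 in yak and 18 in cattle-yak also served as T and NK markers.

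Proximal signalling genes were higher in 15 of 18 in yak and 10 of 13 in cattle-yak. FYB1, an adaptor of the receptor, was 578 against 31.5 CPM in yak and 326 against 9.13 in cattle-yak, SKAP1, its partner, 145 against 13.8 and 99.4 against 2.55, and LCP2, the scaffold of the proximal signal, 83.1 against 4.79 and 59.6 against 1.14. NCK1, a broadly used adaptor, was 75.0 against 49.7 CPM in yak. ZAP70, the kinase that binds the phosphorylated CD3 tails, was 25.2 against 1.53 CPM in yak and 24.3 against 0.659 in cattle-yak and was chosen after its values were seen. The receptor chains other than the members were higher in 4 of 4 in yak and 3 of 3 in cattle-yak, at a median of 4.64 and 6.17. The beta chain was 1306 against 44.3 CPM in yak and 1075 against 10.4 in cattle-yak, the alpha chain 500.3 against 17.4 and 370.2 against 4.17, and CD4 13.1 against 0.604 in yak.

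Of the distal signalling genes, which many cell types share, 6 of 16 were higher and 1 lower in each library. That is a larger share than over all genes but a smaller one than for the proximal genes, and the medians were 0.75 in yak and 0.65 in cattle-yak. TAGAP was higher, at 145 against 16.4 CPM in yak, REL was 206 against 58.2, and PPP3CA, a calcineurin subunit, was 98.8 against 153. Negative regulators were higher in 12 of 15 in yak and 9 of 13 in cattle-yak. In yak CBLB was 160 against 38.1, DGKZ 75.2 against 18.5 and the checkpoint receptor LAG 3 74.5 against 14.6 CPM. PTPN2, at 107 against 53.8 CPM in yak, fell just short of 2-fold. In cattle-yak LAG 3 was 56.7 against 37.3 CPM, which is also less than 2-fold.

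Costimulatory receptors were higher in 12 of 12 and 10 of 10, led in counts by the phosphatase PTPRC (CD45), which opposes and enables LCK, at 1086 against 52.9 CPM in yak, with CD96 at 260 against 10.4, SLAMF6 at 163 against 7.56 and CRTAM at 125 against 4.08. The median was 4.02 in yak and 5.13 in cattle-yak, or 5.42 when CD40LG, at 0 counts outside the cattle-yak lymphocytes, was set to its bound. Cytotoxic genes were higher in 10 of 10 and 8 of 8, with CCL5 at 5194 against 175 CPM, NKG7 at 506 against 20.9, GZMK at 165 against 5.86 and GZMM at 116 against 3.98 in yak. Memory and helper genes were higher in 11 of 11 and 9 of 9, with IL7R at 438 against 17.1, ICOS at 119 against 3.76, CD28 at 48.9 against 2.02 and CD40LG at 35.7 against 1.70 CPM in yak. The T and NK markers that named the lymphocytes included 6 of these costimulatory, 8 cytotoxic and 3 memory genes in yak, and 5, 6 and 3 in cattle-yak. PTPRC, CD96, CRTAM, CCL5, NKG7, GZMK, GZMM, IL7R, ICOS and CD28 were such markers, so their higher levels were not independent of the naming. NK receptors and adaptors were higher in 5 of 6 in both, with NKG2A at 291 against 9.98, NCR3 at 276 against 12.2, CD94 at 238 against 8.77 and HCST at 121 against 4.40 CPM in yak, while NCAM1 was 7.90 against 66.7.

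The Src family kinases other than LCK were mixed. FYN, the other Src kinase of T cells, was 57.1 against 19.0 CPM in yak and 43.5 against 18.6 in cattle-yak, FGR was 37.7 against 17.6 in yak, and YES1 had 17 counts in yak lymphocytes against 1108 elsewhere. Of this list 2 of 5 were at least 2-fold higher and 3 lower in yak, and 1 of 4 higher and 2 lower in cattle-yak, with medians of −1.12 and −0.38 beside −0.55 and −0.41 over all genes. Of the genes tied to gamma delta T cells, 2 of 4 were higher and 2 lower in both libraries. GATA3 was 19.6 CPM in yak lymphocytes against 1.17 elsewhere. ZBTB16 was 16.1 CPM in yak lymphocytes against 87.7 elsewhere, and among yak cells with a CD3 gene it was 15.0 CPM both with and without TRDC.

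The genes whose pattern was most like that of each member were found from the correlation of log2(CPM + 1) over the clusters of each library, 19 in yak and 22 in cattle-yak, among 7399 genes. These correlations describe the clusters, which share library and depth and were shaped by most of these genes. For CD3D the closest was RUNX3, a transcription factor of cytotoxic lymphocytes (r 0.97 in yak and 0.96 in cattle-yak), followed by ENSBGRG00000018485, the alpha chain, NCR3 and ENSBGRG00000018454. For CD3G they were ENSBGRG00000017711 (0.97 and 0.95), the alpha chain, GIMAP1, ENSBGRG00000004074, annotated as a GTPase of the IMAP family, and NCR3. TRDC was closest to ENSBGRG00000007724 (0.98 and 0.95), then to GIMAP1, ENSBGRG00000017711, the alpha chain and ENSBGRG00000004074.

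LCK was closest to ENSBGRG00000002922 (0.91 and 0.93), CRTAM (0.91 and 0.94), ENSBGRG00000018485, IL2RB and STK17B. CD247 had the loosest matches, with ENSBGRG00000018664 (0.84 and 0.90), ENSBGRG00000004074, CD3e (0.80 and 0.90), ENSBGRG00000021181 and MOB3A (0.77 and 0.82). Among the members, CD3G and TRDC were most alike in yak (0.95), and CD3D and CD247 least (0.61, against 0.84 in cattle-yak). In cattle-yak CD3G with TRDC, CD3D with CD3G and CD247 with LCK were nearly level, each at 0.93.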

How the data were processed

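Single-cell RNA was measured in 1 yak and 1 cattle-yak testis library. The authors deposited raw UMI counts per gene and cell, made with Cell Ranger (5.0.0 per the file headers, 2.1.1 per the submitters' processing notes) on BosGru3.0. Cells within 2 SD of the mean genes and UMIs and with under 30% mitochondrial UMIs were kept, more cells than the study states. Per library, 2000 variable genes without the members and receptor constant chains, 30 components, 15 neighbours and Leiden clustering at resolution 1 (scanpy 1.11.5, leidenalg 0.10.2) gave clusters, and lymphocytes were clustered again. A class needed 3 enriched markers. The member genes and all lists were chosen with earlier results of these data known, and germ cell types of the yak came from the study by barcode.

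Counts summed over cells were scaled to CPM. With 1 library per group no test was possible, so values carry exact Poisson, binomial (Clopper-Pearson) or conditional 95% intervals, for counting error only, with the exact upper bound for 0 counts. Fold bounds and plotted triangles use 3 counts instead. Called means 2-fold with 1 CPM added, among genes with at least 50 counts. PCR duplicates were collapsed by UMI before deposit. Named were the members, up to 4 genes per list with the largest counts, the 5 genes most like each member with at least 200 counts, and the 10 highest and 5 lowest genes between cells with and without TRDC. CD3E and LAG3 were found as CD3e and LAG 3 in the annotation after the files were seen. Doublets were not removed, since Scrublet called 0 of 11991 yak cells and 251 of 8930 cattle-yak cells (2.81%), and a variant without the top scores was run. The ratio, its interval and the 2-fold call were run on simulated Poisson sums with 4-fold changes. Clustering, class naming, thinning, co-detection and the split by TRDC were not simulated. Alternatives changed the limits, clustering, lymphocyte definition, depth, scale and pseudocount. Gene order came from RefSeq (Bosgru_T2T1.0). Some genes that the naming rule picked are not reported here.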

Additional observations from a re-analysis of the deposited data

How the results depend on the processing

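No paired analysis was possible because each group is 1 library, and no library could be left out. The log2 ratios of summed members, CD3D and TRDC kept their direction under every alternative run, and the counts of pathway genes stayed within 1.5 times their main values of 73 in yak and 57 in cattle-yak, from 62 to 76 and from 41 to 74. The shares with TRDC and a CD3 gene moved with depth, by construction: 8.93% in yak and 3.98% in cattle-yak at 500 UMIs, 32.6% and 17.2% at 2000, and 33.8% and 20.3% without thinning. For other moves the cause was not tested.

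Lymphocytes against other cells (log2, summed members) were 4.76 in yak without limits on cells, 5.20 in yak with lymphocytes as cells with at least 3 T and NK markers, 5.60 and 7.04 without the highest doublet scores, and 4.05 and 6.59 with the mean of CPM per cell. In cattle-yak they were 6.59 at resolution 0.5, 6.60 with the members among the variable genes, 6.47 without clusters that no T or NK marker led, and 6.58 without sub-clusters with markers of another class. These last exclusions were chosen after seeing the data.

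Cattle-yak against yak lymphocytes, CD3D and TRDC were −1.24 and −0.86 without limits, −1.24 and −1.19 at a mitochondrial share under 20%, −0.94 and −0.64 at resolution 2, −0.70 and −0.38 with at least 3 markers, −0.94 and −0.61 without the highest doublet scores, −0.90 and −0.42 without clusters that no marker led, −0.82 and −0.45 without sub-clusters with markers of another class, −0.86 and −0.55 without mitochondrial and ribosomal RNA genes in the total, and −0.92 and −0.60 with the mean per cell. CD3G turned to 0.025 with at least 3 markers. With at least 3 markers the yak share with TRDC and a CD3 gene was 18.6%, and without sub-clusters with markers of another class the cattle-yak share was 12.5%.

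CD247 in late yak germ cells was 4.17 for the cluster with ACRV1 in place of the typed cells and 4.46 with the deep cells nearest to it, and moved by less than its counting interval under 5 other settings, from 3.32 to 4.07. These settings were chosen after seeing the data. Depth limits CD247 and LCK most, since over 90% of positive lymphocytes held 1 UMI.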

Other observations

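The yak cells above the limits on depth were not all germ cells. Among the 276 unnamed and 86 EC-like cells above a depth limit, CD247 was 1.56 and 2.04 CPM, against 56.4 CPM in the 412 germ-like cells. In the 128 yak and 170 cattle-yak cells outside any limit that lay nearest to the lymphocytes, TRDC was 545 CPM (462 to 639) and 345 CPM (305 to 388), and CD3D was 137 CPM (97.1 to 188) and 71.9 CPM (54.6 to 93.0), below the levels in kept lymphocytes.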
